A study of Mus musculus with 9 samples.

Results

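Granule cells are the principal neurons of the dentate gyrus, and a set of 10 genes known to mark them was followed here in RNA from sorted hippocampal neuronal nuclei. The set is a list of named genes: Prox1, Bcl11b, C1ql2, Dsp, Lct, Tdo2, Stxbp6, Plk5, Glis3 and Npnt. All 10 were found among the 48709 genes counted, and all 10 passed the filter on low counts that left 17361 genes for testing. Nuclei of frozen whole hippocampi were stained for the neuronal protein NeuN, sorted, and sequenced in 9 libraries, 3 from each of 3 groups of mice. The WT group was C57BL/6J mice on tap water. The Tg4-42 group carried a transgene for human Aβ4-42 on the C57BL/6J background and also drank tap water, here called vehicle. The caffeine-treated group was Tg4-42 mice that drank 300 mg/l caffeine for 4 months from an age of 2 months, and mice of all groups were 6 months old at the end. The transgene is kept homozygous and is driven in neurons by the murine Thy1 promoter, with the signal peptide of thyrotropin-releasing hormone. No caffeine-treated WT mice were among these libraries, so the caffeine comparison was made within the transgenic line. The labels give a treatment for the caffeine group alone, and tap water in the other groups is taken from the design of the study.

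Granule cells receive the cortical input to the hippocampus and send mossy fibres to CA3. They are also among the few neurons that continue to be born in the adult rodent brain. Prox1 is a homeobox factor needed for granule cell identity, and Bcl11b, also called Ctip2, is a zinc finger factor of dentate and of CA1 neurons. Neither is restricted to granule cells, since Prox1 is also used by some interneurons and Bcl11b by CA1 pyramidal cells and interneurons.

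The libraries held 9342945 to 16376922 counted reads. In the Tg4-42 mice, Thy1 lay between 461 and 670 CPM (counts relative to the TMM-scaled library total), against 82.1 to 88.8 CPM in WT mice, which separated the transgenic from the WT libraries. The neuronal gene Rbfox3, which encodes NeuN, was present at 89.3 to 148 CPM, and the excitatory marker Slc17a7 at 550 to 932 CPM. The myelin gene Mbp was nevertheless present at 111 to 167 CPM, the astrocyte gene Aqp4 at 2.08 to 11.7 CPM and the choroid plexus gene Ttr at 0.441 to 132 CPM, so RNA of genes typical of other cells was present after the sort. Replicates 1 and 2 of each group were read on sequencing lane 6 and replicate 3 on lane 7. The number of a mouse is only a name, given in the order of the accessions. The labels speak of 6 mice per group for the isolation and the methods of 3, and whether a library came from a single mouse is taken from the animal numbers in the titles. In RNA from a mixture of nuclei, more granule cells and more RNA per granule cell cannot be told apart.

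Of the 10 genes, 3 were higher in caffeine-treated than in vehicle-treated Tg4-42 mice by edgeR's quasi-likelihood test at an adjusted p under 0.05, namely Bcl11b, Stxbp6 and Plk5, and 0 were lower. Among all tested genes, 0.213% were called higher and 0.668% lower. For 6 of the 10, every caffeine-treated mouse lay above every vehicle-treated Tg4-42 mouse, which held for 10.4% of tested genes. An unadjusted p under 0.05 with a higher level was found for 8 of the 10, against 7.15% of tested genes. All 10 fitted differences were positive, with a median log2 fold change of 0.78, where 48.5% of tested genes were positive and their median was -0.01. Prox1, Bcl11b and Dsp were named by the study from these same samples. All 10 genes were chosen with earlier results of these data known, so their direction and these counts are not independent evidence.

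**Figure D1:**
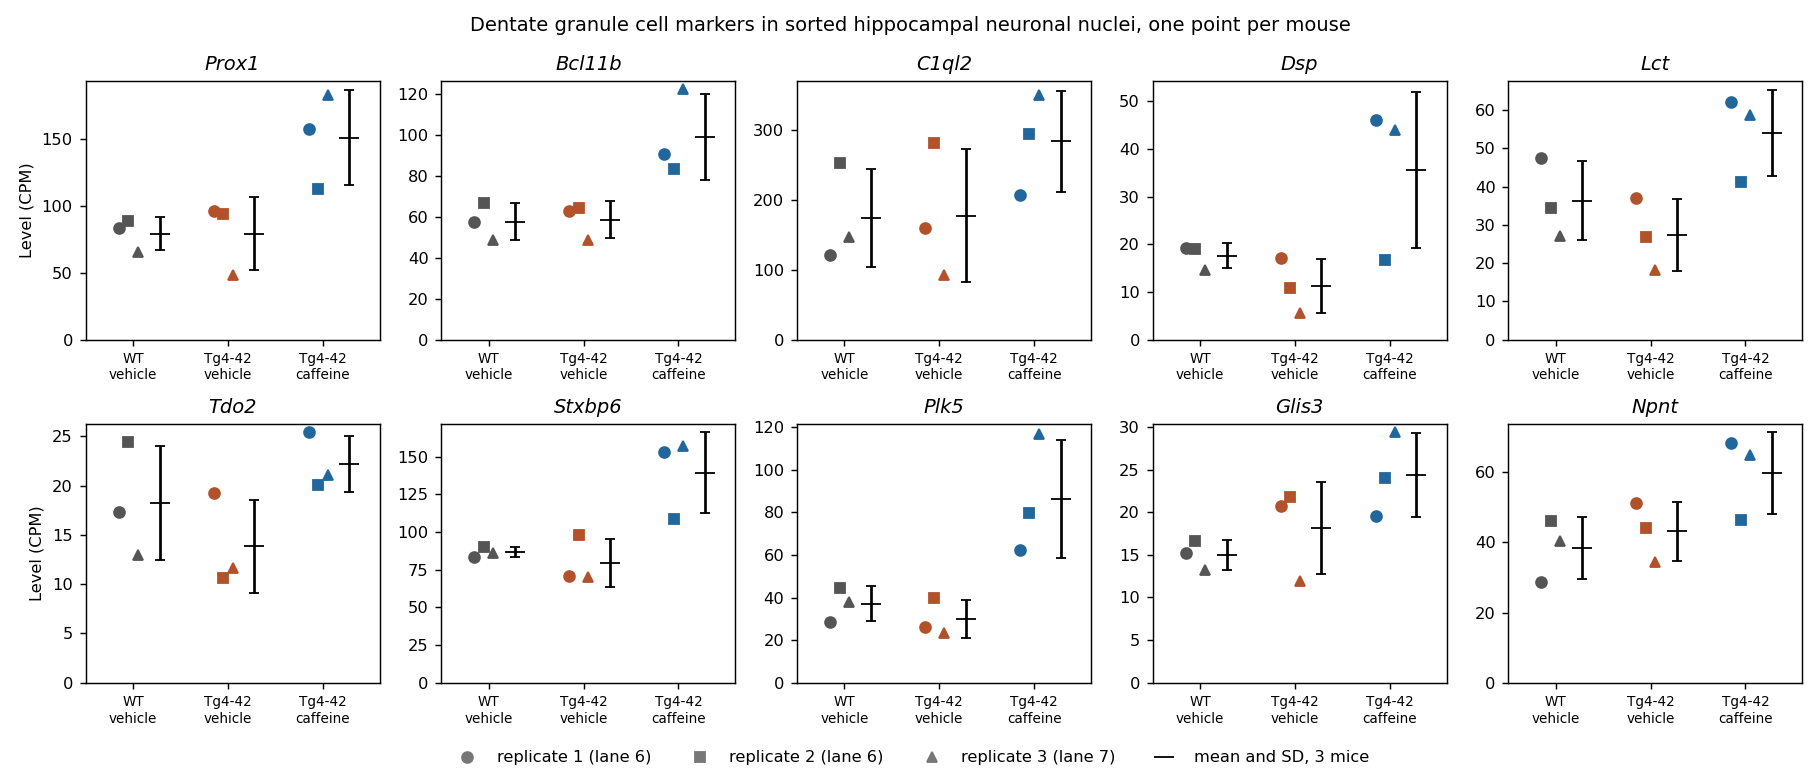
Level of each of the 10 genes in CPM (y axis, from 0) in each mouse of the 3 groups (x axis). Each point is a mouse, its shape gives the replicate number, and the bars give mean and SD of 3 mice. The caffeine-treated mice sit highest on average in every panel, without overlap with vehicle-treated Tg4-42 mice in 6 panels, and vehicle-treated replicate 3 is the lowest of its group in 9 of 10 panels.

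The promoters of 3 of these genes are shown, Plk5 because it had the largest difference among the called genes, Dsp because it had the largest of all 10, and Prox1 because it defines the cell type. Each line holds the 250 bases before a start annotated by RefSeq in GRCm38.p6, 5′ to 3′ on the strand of the gene. The stretches lie at chr10:80356209-80356458 on the plus strand for Plk5, at chr13:38151044-38151293 on the plus strand for Dsp and at chr1:190170828-190171077 on the minus strand for Prox1. Capitals mark GGGCGG, the core of a GC box, CAGATG, an E-box, and TATAAA, on either strand.
Plk5: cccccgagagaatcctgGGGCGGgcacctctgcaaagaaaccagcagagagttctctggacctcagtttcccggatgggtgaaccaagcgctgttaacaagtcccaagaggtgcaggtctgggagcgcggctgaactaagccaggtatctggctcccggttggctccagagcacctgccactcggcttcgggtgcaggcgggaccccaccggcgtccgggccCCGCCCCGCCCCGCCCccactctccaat
Dsp: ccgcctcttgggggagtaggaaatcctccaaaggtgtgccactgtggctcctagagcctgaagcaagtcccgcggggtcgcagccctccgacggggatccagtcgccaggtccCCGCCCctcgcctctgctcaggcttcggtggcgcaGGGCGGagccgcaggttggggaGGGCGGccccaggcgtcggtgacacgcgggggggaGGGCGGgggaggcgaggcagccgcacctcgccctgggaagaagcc
Prox1: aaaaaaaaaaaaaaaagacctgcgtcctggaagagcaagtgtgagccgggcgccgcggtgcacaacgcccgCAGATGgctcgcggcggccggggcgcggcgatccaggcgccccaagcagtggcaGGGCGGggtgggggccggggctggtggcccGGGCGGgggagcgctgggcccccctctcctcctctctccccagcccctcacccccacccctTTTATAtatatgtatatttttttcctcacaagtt

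In Plk5 the hexamer GGGCGG stands 4 times in the window, 3 of them on the opposite strand and within 28 bases of the start, where neighbouring copies share a base. Dsp also held it 4 times, between 137 and 45 bases before the start. Prox1 held it at 125 and 95 bases before the start, with CAGATG at 179 and the reverse of TATAAA at 34 bases. Promoters were found for all 10 genes, 12 windows in all, and GGGCGG was present for 5 of the 10 genes (Prox1, Dsp, Plk5, Glis3 and Npnt), while 32.7% of the 32851 promoters in the table held it. A gene was counted if any of its windows held a motif, while the shares are per promoter, and Prox1 and Npnt had more than 1 window. The Prox1 window that is not printed held GGGCGG at 58 bases before its start. CAGATG was found for 1 gene and in 14.4% of all promoters, TATAAA for 2 genes and in 12.4%, and the E-box CAGCTG for 1 gene, Glis3, and in 13%. The motif TGACGTCA, the full cyclic AMP response element, was found for 0 of the 10 genes and in 1.55% of all promoters. The GC content was 72.4% in the Dsp window, 65.6% in that of Plk5, 64.8% in that of Prox1 and 42.8% in that of Lct, where the median of all promoters was 52.4%. These letter matches describe the windows and say nothing of binding. The windows of Bcl11b and Stxbp6 overlap their annotated genes by 188 and 226 bases and are not printed.

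The transcription factors are taken first. Prox1 (ENSMUSG00000010175; mm10 chromosome 1, 190118035 to 190170714, minus strand) was at 83.4, 88.6 and 65.6 CPM in the WT mice. It was at 95.9, 93.8 and 47.9 CPM in the vehicle-treated Tg4-42 mice and at 157, 113 and 183 CPM in the caffeine-treated mice, each in the order of replicates 1 to 3. Every caffeine-treated mouse was above the other 6, and replicate 3 was the lowest of both vehicle groups and the highest with caffeine. Mean levels were 151 ± 35.5 CPM (SD, n = 3) with caffeine, 79.2 ± 27.1 CPM (SD, n = 3) on vehicle in the same line, and likewise 79.2 CPM in WT mice with an SD of 12.03. Caffeine against vehicle gave a log2 fold change of 0.93 (SE 0.25), which did not pass edgeR's test after adjustment (adjusted p = 0.105). The two-sided exact permutation test of 3 against 3 mice gave p = 0.1, its smallest value, here and for each of the 6 genes without overlap. An antisense gene, Prox1os, shares 133 exon bases with Prox1, which are 1.58% of its exon length, and since a strand setting for the counting is not given in the sources used here, reads in that stretch could belong to either.

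Bcl11b (ENSMUSG00000048251; chromosome 12, 107910403 to 108003602, minus strand) was at 57.4, 66.6 and 48.7 CPM in WT mice, at 63.0, 64.4 and 48.4 CPM in vehicle-treated Tg4-42 mice, and at 90.8, 83.4 and 123 CPM with caffeine. The lowest caffeine-treated mouse was above the highest of the 6 others. Bcl11b rose with caffeine by a log2 fold change of 0.75 (SE 0.17, edgeR adjusted p = 0.0469), a ratio of 1.69. Its call was near the threshold, and in the fit with the replicate number as a block it was not called, while Lct was.

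Glis3 (ENSMUSG00000052942; chromosome 19, 28258851 to 28680077, minus strand), a Krüppel-like zinc finger factor, was at 15.2, 16.7 and 13.2 CPM in WT mice, at 20.8, 21.8 and 11.97 CPM in vehicle-treated and at 19.6, 24.1 and 29.4 CPM in caffeine-treated Tg4-42 mice. The Tg4-42 groups overlapped, whereas the caffeine-treated mice were all above the WT mice. Its difference on the log2 scale was 0.42 (SE 0.22) against vehicle and 0.70 (SE 0.22) against WT, with edgeR adjusted p values of 0.342 and 0.148. It was the smallest caffeine difference among the 10 genes.

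Genes for proteins outside the cell and at its contacts come next. C1ql2 (ENSMUSG00000036907; chromosome 1, 120340582 to 120343174, plus strand), a secreted C1q-like protein of mossy fibre synapses, was at 121, 253 and 146 CPM in WT mice. It was at 159.8, 280.5 and 91.7 CPM in vehicle-treated and at 206, 294 and 350.2 CPM in caffeine-treated Tg4-42 mice. The groups overlapped, with replicate 2 the highest mouse of both vehicle groups. Its spread was the widest of the 10 in both vehicle groups, with an SD of 40.4% of the mean in WT and 53.9% in vehicle-treated Tg4-42 mice. Its caffeine difference of 0.68 on the log2 scale (SE 0.45) did not pass (edgeR adjusted p = 0.505).

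Npnt (ENSMUSG00000040998; chromosome 3, 132881745 to 132950291, minus strand), which encodes the extracellular matrix protein nephronectin, was at 28.6, 46.0 and 40.3 CPM in WT mice, at 51.1, 44.1 and 34.4 CPM in vehicle-treated and at 68.1, 46.3 and 64.7 CPM in caffeine-treated Tg4-42 mice. Caffeine-treated replicate 2 fell below vehicle-treated replicate 1, so the Tg4-42 groups overlapped, and the caffeine-treated mice were above the WT mice by a narrow margin. With caffeine the log2 fold change was 0.47 (SE 0.19, edgeR adjusted p = 0.234).

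Dsp (ENSMUSG00000054889; chromosome 13, 38151294 to 38198577, plus strand) encodes desmoplakin, which anchors intermediate filaments at desmosomes. It was at 19.2, 18.9 and 14.6 CPM in WT mice, at 17.1, 10.9 and 5.62 CPM in vehicle-treated Tg4-42 mice, and at 46.0, 16.7 and 44.0 CPM with caffeine. Caffeine-treated replicates 1 and 3 were far above all other mice, while replicate 2 lay below vehicle-treated replicate 1 and within the WT range. The log2 fold change of 1.68 (SE 0.44) was the largest of the 10 genes and ranked 11 among the 17361 tested genes, yet it did not pass (edgeR adjusted p = 0.111, exact permutation p = 0.2). The raw counts behind these levels ran from 70 in vehicle-treated replicate 3 to 626, so counting error was small beside the spread between mice. A gene on the opposite strand, Gm10129, shares 499 exon bases with Dsp, which are 5.17% of the exon length of Dsp. Gm10129 held 1 count over all libraries, and the limit on the strand setting given for Prox1 holds here too. Relative to WT mice, Dsp differed by -0.67 (SE 0.45) on the log2 scale on vehicle and by 1.01 (SE 0.43) with caffeine, and neither passed. The study, which used DESeq2, gave Dsp as the gene with the strongest rise under caffeine. It also reported abundant desmoplakin protein staining in the dentate granule layer with caffeine and not on vehicle.

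Stxbp6 (ENSMUSG00000046314; chromosome 12, 44852484 to 45074709, minus strand) encodes amisyn, a protein that binds SNARE complexes of vesicle fusion. It was at 83.4, 90.0 and 86.3 CPM in WT mice, at 71.0, 98.1 and 70.0 CPM in vehicle-treated Tg4-42 mice, and at 153, 108 and 157 CPM with caffeine. Its WT mice were the closest together of all 10 genes, with an SD of 3.83% of the mean, and every caffeine-treated mouse was above the other 6. Stxbp6 rose with caffeine by a log2 fold change of 0.81 (SE 0.16, edgeR adjusted p = 0.0399).

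Plk5 (ENSMUSG00000035486; chromosome 10, 80356459 to 80365489, plus strand), a brain-expressed member of the polo-like kinase family, was at 28.6, 44.7 and 38.1 CPM in WT mice. It was at 26.3, 40.0 and 23.5 CPM in vehicle-treated and at 62.5, 79.7 and 117 CPM in caffeine-treated Tg4-42 mice. The lowest caffeine-treated mouse was well above the highest of the 6 others, which was a WT mouse. Plk5 rose by a log2 fold change of 1.52 (SE 0.26, edgeR adjusted p = 0.0385), a ratio of 2.86, and ranked 19 among the tested genes by this difference.

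Of the enzymes, Lct (ENSMUSG00000026354; chromosome 1, 128284756 to 128328318, minus strand) encodes lactase, better known from the intestine. It was at 47.5, 34.3 and 27.1 CPM in WT mice, at 36.9, 26.8 and 18.3 CPM in vehicle-treated Tg4-42 mice, and at 62.1, 41.1 and 58.7 CPM with caffeine. The Tg4-42 groups did not overlap, but caffeine-treated replicate 2 was below the highest WT mouse. Its log2 fold change of 0.99 (SE 0.26) did not pass (edgeR adjusted p = 0.0922).

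Tdo2 (ENSMUSG00000028011; chromosome 3, 81957090 to 81976202, minus strand) encodes tryptophan 2,3-dioxygenase, which opens the tryptophan ring on the way to kynurenine. It was at 17.3, 24.4 and 12.9 CPM in WT mice, at 19.3, 10.7 and 11.6 CPM in vehicle-treated Tg4-42 mice, and at 25.4, 20.1 and 21.1 CPM with caffeine. The Tg4-42 groups were separated by less than 1 CPM, and the caffeine-treated mice overlapped the WT mice. The difference was 0.70 (SE 0.25) on the log2 scale (edgeR adjusted p = 0.173). Among the 10 genes, Tdo2 had the smallest spread between caffeine-treated mice, with an SD of 12.8% of the mean.

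Levels of different genes were compared per length, as CPM per kilobase of exon (RPKM). In WT mice C1ql2 stood at 86.7 ± 35.0 RPKM (SD, n = 3), above Stxbp6 at 16.3 ± 0.63 and Plk5 at 13.9 ± 3.03 RPKM. Prox1 followed at 9.44 ± 1.43, Npnt at 7.62 ± 1.76, Bcl11b at 7.10 ± 1.11, Lct at 5.66 ± 1.61 and Tdo2 at 4.70 ± 1.497 RPKM. Dsp at 1.82 ± 0.27 and Glis3 at 1.70 ± 0.20 RPKM were the lowest. Neighbours in this order overlapped between mice except at 3 steps, from C1ql2 to Stxbp6, from Plk5 to Prox1 and from Tdo2 to Dsp. With caffeine, Plk5 at 32.2 ± 10.4 RPKM (SD, n = 3) stood above Stxbp6 at 26.3 ± 5.09 RPKM, though their mice overlapped, and Bcl11b stood above Npnt, also with overlap.

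Between vehicle-treated Tg4-42 and WT mice, 0 of the 10 genes were called by edgeR's quasi-likelihood test, and 0 by DESeq2 and by limma-voom, where edgeR called 0.0979% of tested genes in either direction. An unadjusted p under 0.05 in edgeR's test was reached by 0 of the 10, and by only 475 of the 17361 tested genes. For 0 of the 10 did the mice of the groups separate, which they did for 6.73% of tested genes. The fitted differences were positive for 4 genes and negative for 6, with a median log2 fold change of -0.06. They ran from -0.67 (SE 0.45) for Dsp to 0.27 (SE 0.22) for Glis3. For Prox1 the difference was 0.00 (SE 0.25) and for Bcl11b 0.03 (SE 0.17), so with these errors a moderate difference in either direction was not detectable.

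Against WT mice, 0 of the 10 genes were called in caffeine-treated Tg4-42 mice by edgeR, where 0.144% of tested genes were called higher and 0.271% lower. DESeq2 called 5 of the 10, at 1.55% of its tested genes called higher, and limma-voom 1, at 0.161%. At an unadjusted p under 0.05, 8 of the 10 were higher, against 6.78% of tested genes. Every caffeine-treated mouse was above every WT mouse for 6 genes, Prox1, Bcl11b, Stxbp6, Plk5, Glis3 and Npnt, against 9.14% of tested genes. All 10 differences were positive, with a median log2 fold change of 0.70. Bcl11b came closest to the threshold with 0.78 (SE 0.16, edgeR adjusted p = 0.0526), followed by Plk5 with 1.21 (SE 0.25, adjusted p = 0.0718) and Stxbp6 with 0.69 (SE 0.16, adjusted p = 0.0724). This comparison shares the caffeine-treated mice with the one against vehicle-treated Tg4-42 mice and is not a second, independent test, and it mixes the transgene with the treatment.

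**Figure D2:**
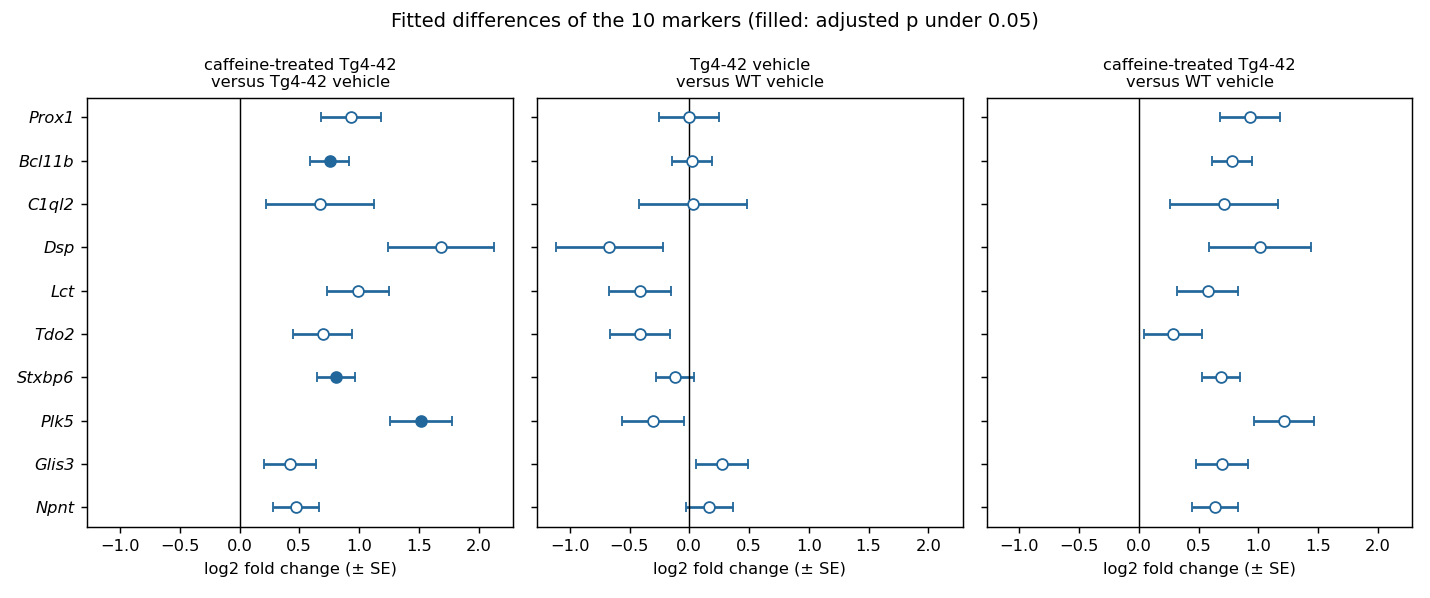
Log2 fold changes of the 10 genes (x axis, bars are ± SE of edgeR's fit of 9 mice) in the 3 comparisons (panels). Filled points passed an adjusted p of 0.05, which only Bcl11b, Stxbp6 and Plk5 did, in the caffeine comparison within Tg4-42 mice. In the middle panel the points lie on both sides of 0, between -0.67 and 0.27.

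The mice of a group differed from each other across many of the genes at once. Vehicle-treated Tg4-42 replicate 3 was the lowest of its group for 9 of the 10 genes, all but Tdo2. Caffeine-treated replicate 3 was the highest of its group for 6 genes and replicate 1 for the 4 others, Dsp, Lct, Tdo2 and Npnt. Caffeine-treated replicate 2 was the lowest for 7 genes. The 10 genes summed to 363.5 to 691 CPM in vehicle-treated Tg4-42 mice, 493 to 683 CPM in WT mice and 826.5 to 1147 CPM in caffeine-treated mice, so the summed levels of the caffeine-treated mice did not overlap those of the other mice.

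Since replicate 3 is also the mouse on lane 7, the caffeine difference was recomputed within each lane. On lane 6, with 2 against 2 mice, all 10 differences were positive, with a median of 0.56 on the log2 scale. On lane 7, with 1 mouse each, all 10 were positive and all 10 were larger than on lane 6, with a median of 1.505. For Dsp the differences were 1.02 on lane 6 and 2.94 on lane 7, for Prox1 0.49 and 1.93, for Bcl11b 0.45 and 1.34, and for Glis3 0.03 and 1.29. With the lane as a term in the edgeR model, 0 of the 10 genes were called, at a total of 9 called genes, while the log2 fold changes stayed near their values without it. They were 1.496 for Plk5 (adjusted p = 0.0576), 0.81 for Stxbp6 (adjusted p = 0.0582) and 0.76 for Bcl11b (adjusted p = 0.0668) in that edgeR fit. Lane 6 alone, with 2 mice a group, gave 0 called genes. Lane 7 holds a single mouse of each group, so the lane and these mice cannot be told apart.

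**Figure D3:**
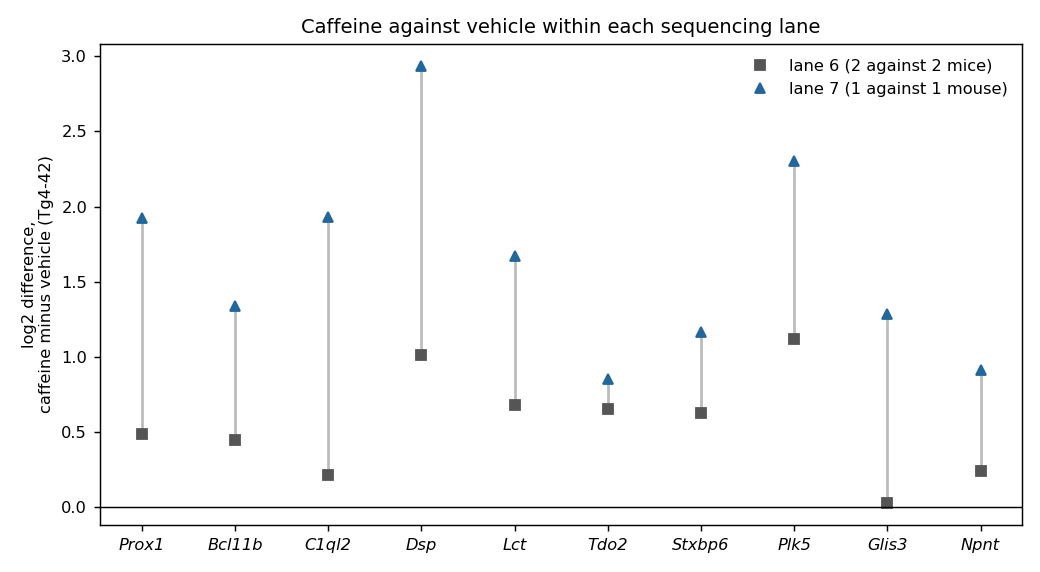
Difference in mean log2 level between caffeine- and vehicle-treated Tg4-42 mice (y axis) for each gene (x axis), on lane 6 (squares, 2 against 2 mice) and lane 7 (triangles, 1 against 1 mouse). All points are above 0 and each triangle is above its square, with the widest gap for Dsp, from 1.02 to 2.94.

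The 3 calls depended on single mice. Without caffeine-treated replicate 3, without vehicle-treated replicate 1 or without vehicle-treated replicate 3, 0 of the 10 genes were called. The count over all tested genes moved as well. It was 0 without caffeine-treated replicate 3, 58 without replicate 2 of that group and 341 without its replicate 1, where the fit of all mice called 153. Without caffeine-treated replicate 2, Stxbp6 stayed called (edgeR adjusted p = 0.0243), Bcl11b and Plk5 did not (adjusted p = 0.0524 for both) and Dsp was called in addition (adjusted p = 0.0243). Without caffeine-treated replicate 1 or vehicle-treated replicate 2, the same 3 genes were called. In these 6 fits the log2 fold change of Plk5 stayed between 1.24 and 1.80, that of Stxbp6 between 0.71 and 0.99, that of Bcl11b between 0.57 and 0.86 and that of Dsp between 1.37 and 2.09. DESeq2 and limma-voom with quality weights each called 6 of the 10, Prox1, Bcl11b, Dsp, Lct, Stxbp6 and Plk5, where DESeq2 called 2.06% of the genes it tested higher and limma-voom 1.05%.

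A further 18 genes that mark granule cells were listed beside the 10. This list too was chosen with earlier results of these data known. Of the 18, 16 were positive on the log2 scale in caffeine- against vehicle-treated Tg4-42 mice, with a median of 0.38, where 48.5% of tested genes were positive. At an unadjusted p under 0.05, 8 were higher, against 7.15% of tested genes. For 6, every caffeine-treated mouse lay above every vehicle-treated Tg4-42 mouse, against 10.4% of tested genes. By edgeR's test 0 of the 18 were called after adjustment. The exceptions in direction, named after their values were seen, were Lrrtm4 at -0.23 (SE 0.17) and Stra6 at -0.49 (SE 0.37). Of the positive genes, some lay within their SE of 0. These, also named after their values were seen, were Synpr at 0.007 (SE 0.13), Mn1 at 0.04 (SE 0.20), Trpc6 at 0.06 (SE 0.17) and C1ql3 at 0.08 (SE 0.17). The 18 genes summed to 2233 to 3115 CPM in vehicle-treated Tg4-42 mice, 2436 to 2990 CPM in WT and 3095 to 3624 CPM in caffeine-treated mice. The lowest caffeine-treated mouse lay below the highest vehicle-treated mouse.

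Markers of other cell types were read in the same libraries, without a test between lists. Of 10 CA1 pyramidal genes, 2 were positive on the log2 scale for caffeine against vehicle, with a median of -0.30 and 0 called. At an unadjusted p under 0.05 in edgeR's test, 3 of these were lower and 1 higher, where 2946 of the 17361 tested genes passed in either direction. Against WT mice, 2 of the 10 were called lower in caffeine-treated mice, where 0.271% of all tested genes were, namely Wfs1 at -0.77 (SE 0.15, edgeR adjusted p = 0.0408), a protein of the endoplasmic reticulum, and Ccn3 at -1.06 (SE 0.19, edgeR adjusted p = 0.0274), a secreted matrix protein. Their summed level was 674 to 969 CPM with caffeine, 982 to 1172 CPM in vehicle-treated Tg4-42 mice and 942 to 1379 CPM in WT mice. Of 12 CA2 and CA3 genes, 8 were positive with a median of 0.16 and 0 called.

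Of 10 interneuron genes, 1 was positive with caffeine, the median was -0.48, and 1 was called lower, where 0.668% of all tested genes were. This was Slc32a1, the vesicular transporter of GABA, which fell by 0.93 on the log2 scale (SE 0.20, edgeR adjusted p = 0.0462). At an unadjusted p under 0.05 in edgeR's test, 8 of the 10 interneuron genes were lower and 0 higher. Of the 17361 tested genes, 2946 reached this in either direction, 1241 of them higher. The 10 interneuron genes summed to 1086 to 1331 CPM with caffeine, 1409 to 2063 CPM in vehicle-treated Tg4-42 mice and 1445 to 1541 CPM in WT mice, the highest being vehicle-treated replicate 3. The 8 genes of subiculum and cortex had a median of -0.38, and the 6 pan-neuronal genes one of -0.16, with 0 called in each. Of 11 genes of progenitors and immature neurons, 6 could be tested, 4 were positive with a median of 0.04 and 0 were called. The positive genes reached at most 6.78 CPM. The abundant Dcx and Sox11, named here after their values were seen, were at -0.49 (SE 0.18) and -0.37 (SE 0.14) on the log2 scale. Neither passed (edgeR adjusted p = 0.192 and 0.208). For both, every caffeine-treated mouse was below every vehicle-treated Tg4-42 mouse. The share of tested genes separated downward is not given here, while 10.4% were separated upward. Dcx encodes doublecortin, a microtubule protein of young neurons, and Sox11 is a transcription factor of the same stage. This list summed to 176 to 263 CPM with caffeine, 287 to 329 CPM in vehicle-treated Tg4-42 mice and 229 to 301 CPM in WT mice. Of the 6 mossy cell genes, 4 could be tested, with 2 positive and 0 called.

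Of the non-neuronal markers, 0 were called for caffeine against vehicle. The 7 astrocyte genes had a median of -0.72 with 1 positive, the 10 oligodendrocyte genes -0.42 with 1 positive, and the 6 microglia genes -0.56 with 0 positive. In these lists 4, 4 and 2 genes were lower at an unadjusted p under 0.05. Of all 17361 tested genes, 2946 had an unadjusted p under 0.05 in either direction, 1241 of them with a higher level. The astrocyte genes summed to 138 to 197 CPM with caffeine, 210 to 252 CPM in vehicle-treated Tg4-42 and 198 to 270 CPM in WT mice. Of 6 choroid plexus genes 5 were tested, with a median of -1.21, and their sum ran from 17.8 to 149 CPM in vehicle-treated Tg4-42 mice and from 19.6 to 60.6 CPM with caffeine, so that the mice of a group differed widely. The 6 vascular genes, of which 2 could be tested, summed to at most 5.65 CPM in any mouse. No marker on any of these lists was at 0 in all libraries. The part of other cell types in the differences of the 10 granule cell genes was not tested.

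**Figure D4:**
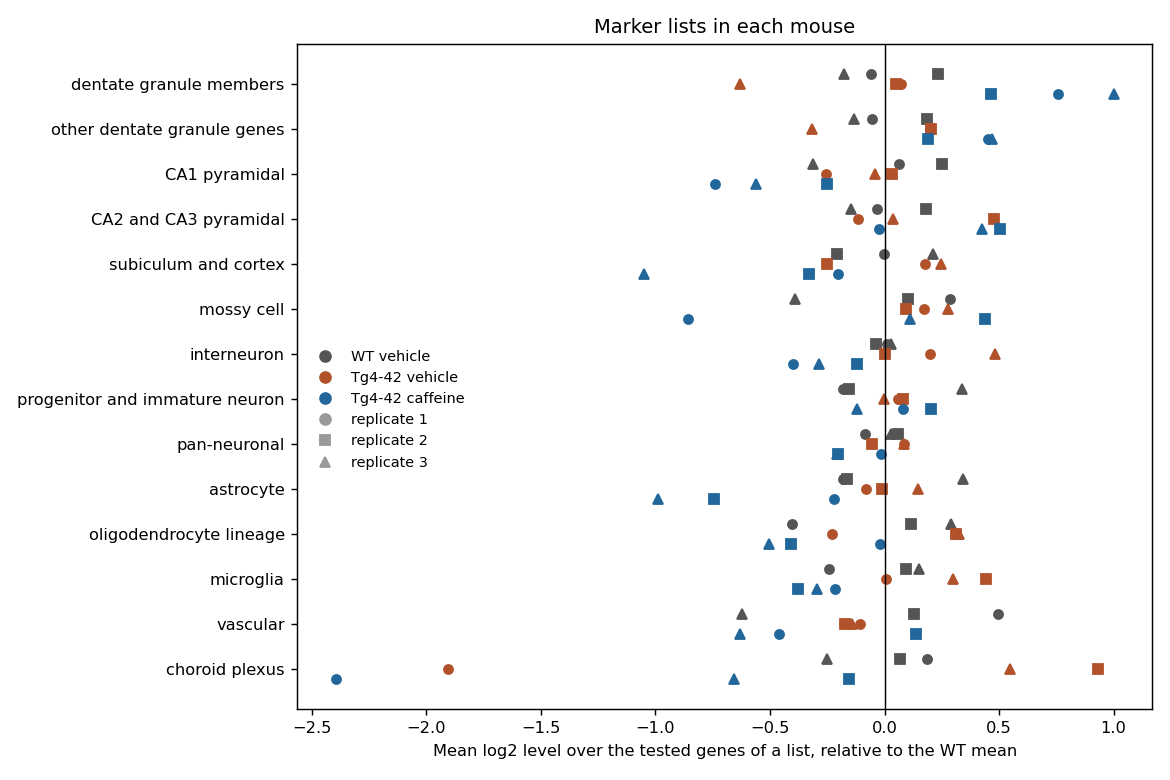
Mean log2 level of the tested genes of each marker list relative to the mean of the WT mice (x axis), for 14 lists (y axis), with a point for each mouse, coloured by group and shaped by replicate number. The 10 granule cell genes of the top row lie between 0.47 and 1.00 in caffeine-treated mice, to the right of all other mice. Every caffeine-treated mouse lies below 0 in the CA1, subiculum and cortex, interneuron and pan-neuronal rows. The same holds in the astrocyte, oligodendrocyte, microglia and choroid plexus rows. In some of these rows, such as CA1, caffeine-treated mice overlap WT mice.

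The 10 genes varied together between mice. Over the 9 mice, the correlation of a gene with the mean of the other 9 genes ran from 0.67 for Tdo2 to 0.98 for Prox1. With the mean of each group taken out, so that the treatment no longer enters, it was 0.955 for Prox1, 0.91 for Bcl11b and 0.79 for Dsp and Glis3. It was lower for the others, with 0.67 for C1ql2 and Npnt, 0.61 for Lct, 0.58 for Stxbp6, 0.51 for Plk5 and 0.38 for Tdo2. These are descriptions over 9 libraries that also share depth and composition. Among all other tested genes, the 5 most like the mean of the 10 over the 9 mice were Il20rb (r = 0.99, Spearman's rho = 0.95), Ablim3 (r = 0.98, rho = 0.97), Slc26a10 (r = 0.975, rho = 0.97), Ccdc85a (r = 0.97, rho = 0.93) and F730043M19Rik (r = 0.97, rho = 0.95). Their log2 fold changes with caffeine lay between 0.46 for Ccdc85a and 1.00 for Slc26a10, and 0 of the 5 passed edgeR's test. Most like Bcl11b alone were Htra4 (r = 0.98), Agap1 (r = 0.98) and Cabp7 (r = 0.98). Most like Dsp alone were Calcoco1 (r = 0.97), 3100002H09Rik (r = 0.96) and Cnksr2 (r = 0.95), and Calcoco1 followed the mice of Dsp at a log2 fold change of 0.14, far smaller than that of Dsp.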

How the data were processed

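Nuclear RNA was prepared with a low-input amplification kit and read as single-end reads of 50 bases. The authors aligned the reads to mm10 (GRCm38) with STAR and deposited the counts of reads on the exons of each gene from featureCounts, without normalization. Versions and a strand setting are not given in the sources used here. Exon counts of nuclear RNA leave out intronic reads, and reads of a library can hold amplification copies.

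Symbols and positions for 48349 of 48709 genes came from GENCODE M21, and promoters from RefSeq in GRCm38.p6. In R 4.3.3, edgeR 4.0.16 fitted all 9 libraries at once (TMM, its filter at a minimum count of 10 and total of 15, robust quasi-likelihood F test), with Benjamini-Hochberg adjustment over 17361 genes at 0.05. The SE was taken from the F statistic. CPM used TMM-scaled totals, log values a prior count of 2, and two-sided exact permutation tests log2(CPM + 0.5). The smallest p of 3 against 3 is 0.1. Alternatives used DESeq2 1.42.0, limma 3.58.1 (voom), other filters, scaling, samples and covariates. Scripts were tested on simulated data. All 10 genes were named. From other lists, genes passing the adjusted test were named, and the genes most alike by correlation. The genes and lists were chosen with earlier results of these data known. Mice of a group correlated at 0.978 to 0.985 in log CPM and differed by more than sampling noise.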

Additional observations from a re-analysis of the deposited data

How the results depend on the processing

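For caffeine against vehicle in the Tg4-42 line, 3 of the 10 genes and 153 of all genes were called. DESeq2 called 6 and 766, omitting the filter on low counts 9 and 987, and limma-voom 6 and 618, while the lane as a covariate gave 0 and 9 and lane 6 alone 0 and 0. Fits that omitted a single mouse called 0 to 3 of the 10 and 0 to 341 genes. Between caffeine-treated Tg4-42 and WT mice, 0 of the 10 and 72 genes were called. DESeq2 gave 5 and 568, no filter 9 and 860, a mean of at least 50 counts 1 and 84, only the groups compared 3 and 106, limma-voom 1 and 106, the lane as a covariate 42 genes and lane 6 alone 17 genes, and leaving out mice 0 to 2 of the 10 and 16 to 287 genes. For vehicle-treated Tg4-42 against WT mice, 0 of the 10 were called throughout, and 17 genes became 26 with DESeq2 and 74 without the filter, with 14 to 18 when mice were left out. The cause of these shifts was not tested.

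Each of the 10 genes was refitted in 9 alternative settings and in 6 fits that left out a mouse. This gave 150 values per comparison, which reuse the same mice and are not independent. The caffeine differences kept their sign in all 150 against vehicle-treated Tg4-42 mice, with 18 calls lost and 14 gained. They did so in all 150 against WT, with 24 gained. Against WT, the difference of vehicle-treated Tg4-42 mice changed sign in 14 of 150 values. Prox1 gave 0.0052 at a mean of at least 50 counts, 0.13 on lane 6 and -0.16 to 0.25 without single mice. C1ql2 gave -0.0017 with the lane as a covariate, -0.0445 with limma-voom and -0.47 to 0.41 without single mice. Bcl11b ranged from -0.091 to 0.15 and Npnt from -0.0021 to 0.32 without single mice.

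The replicate number does not pair the mice in the labels. Residuals of mice with the same number correlated at 0.152, 0.181 and -0.171 between the Tg4-42 groups and at -0.17, 0.008 and -0.106 between caffeine-treated and WT mice. Between the vehicle groups they correlated at 0.188, 0.138 and 0.156, where every mouse correlated best with its own number, a hint from the data and not from the design. With the replicate number as a block, 3 of the 10 genes (187 of all) were called with caffeine against vehicle, 1 of the 10 (82 of all) against WT, and 0 (16 of all) for the transgene on vehicle against WT. With 3 mice a group, a permutation test cannot pass 0.05. The lowest count of any of the 10 genes in a mouse was 70, for Dsp.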

Other observations

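Among pairs of the 10 genes, Prox1 and Bcl11b (r = 0.95 over the 9 mice) and Dsp and Lct (r = 0.95) varied most alike, and C1ql2 and Tdo2 least (r = 0.41). Dsp and Lct fell in the same order of replicates in every group, with replicate 1 highest in each. Bcl11b, C1ql2, Stxbp6, Plk5 and Glis3 were highest in replicate 2 of both vehicle groups and in replicate 3 with caffeine. These are descriptions of 9 libraries, of which 3 are at the higher levels of the caffeine group.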
